A study of Mus musculus with 10 samples.

Results

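Among the genes that differed most between livers given Phf2 and livers given GFP are several with no settled part in liver biology. Described here are 10 genes of 19938 measured by name: the peptide Apela, its sister peptide Apln and their receptor Aplnr, the lipocalin Obp2a, the phosphate transporter Slc34a2, the chromatin ATPase Morc4, the surface protein Ly6d, the receptor Adgrf1 and the paired genes Selenbp1 and Selenbp2. They were chosen by name with their difference between the groups known, Apln and Aplnr as relatives of Apela, so that this difference is given as a description without a test. Each gene was read by the feature of the array that the platform annotation ties to its symbol alone, and all 10 had exactly 1 such feature. Liver RNA came from male C57BL/6J mice that were 8 weeks old when an adenovirus was injected into the tail vein and that were studied, fed, 3 weeks later. In 5 mice the virus carried Phf2, a histone demethylase that removes the H3K9me2 mark, and in 5 control mice it carried GFP, a fluorescent protein. Every mouse therefore carried a virus, and no uninjected liver was analysed here. The dose is written as 5.108 pfu per mouse in the labels. The methods give it with an exponent of 10 that the labels do not show, so 5.108 is not the dose injected. One array was hybridised per mouse, and the mice of a group are biological replicates by label. The promoter that drove the viral genes is not stated. Values are on the log2 scale after RMA, so that a difference of 1 is a doubling in signal.

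On the whole, 1929 of 19938 genes (9.67%) passed an adjusted p of 0.05 (limma, Benjamini-Hochberg), 1083 higher and 846 lower with Phf2. When each array was centred on the median of the genes tested, 816 were higher and 1280 lower. The median difference over all genes was -0.01. Array medians lay between 5.06 and 5.18, and values below them are close to the low end of the scale, where a fold change is compressed. The feature for Phf2 read 6.32 to 6.54 in GFP mice and 6.27 to 6.58 in Phf2 mice (log2 difference -0.05, standard error 0.08, adjusted p = 0.751 from limma). By the methods, mice that did not overexpress the viral gene were left out, and a Phf2 plasmid was made from cDNA of a human cell line. Whether the virus carried that human sequence, and whether this feature would read it, is not stated, so the arrays give no check of the labels from Phf2 itself. Hepatocyte markers averaged 12.5 to 12.6 in GFP mice and 12.0 to 12.4 in Phf2 mice with Tat, Cps1 and Apoa1 of 5 lower in Phf2 mice (1 of 5 by the methods' t-test). Alb and Ttr had log2 differences of -0.01 (adjusted p = 0.94 from limma) and -0.06 (adjusted p = 0.651). Of the T and NK cell markers 5 of 6 were higher. Kupffer cell markers were lower in 3 of 6, whereas no marker of endothelial cells (of 6), bile duct cells (of 5) or B cells (of 5) passed the test. The B cell markers averaged below or among the array medians. In a piece of liver, fewer cells of a type and less RNA per cell cannot be told apart.

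The 10 genes come from unrelated families. Apelin (Apln) and Apela, also called Elabela or Toddler, are secreted peptides that both act on Aplnr, a G protein-coupled receptor found mainly on endothelial and heart muscle cells, and Apela is best known from the early embryo. Obp2a, whose older name is Lcn13, encodes a lipocalin, a small secreted carrier of hydrophobic molecules. Slc34a2 encodes a sodium-phosphate cotransporter of gut and lung epithelium, Morc4 a nuclear ATPase with a domain that reads methylated histone H3, and Ly6d a small lipid-anchored surface protein known from early B lineage cells and from keratinocytes. Adgrf1, or Gpr110, is an adhesion G protein-coupled receptor, and Selenbp1 is a methanethiol oxidase of sulphur metabolism with Selenbp2 as its close paralogue.

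Of the 10 genes, 8 passed the adjusted threshold that 9.67% of all genes passed, with 5 higher and 3 lower in Phf2 mice (5.43% and 4.24% of all genes). The same 8 showed no overlap between the 5 GFP and the 5 Phf2 livers, against 9.08% of all genes (4.71% higher, 4.36% lower). They also met the study's own call rule of 1.5-fold at an unadjusted p of 0.05, which 3.54% of all genes met. Because the genes were picked on this contrast, nothing is read from these shares. A difference of at least 4-fold was seen in 32 genes in all (0.16%), and 6 of them are described here.

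**Figure D1:**
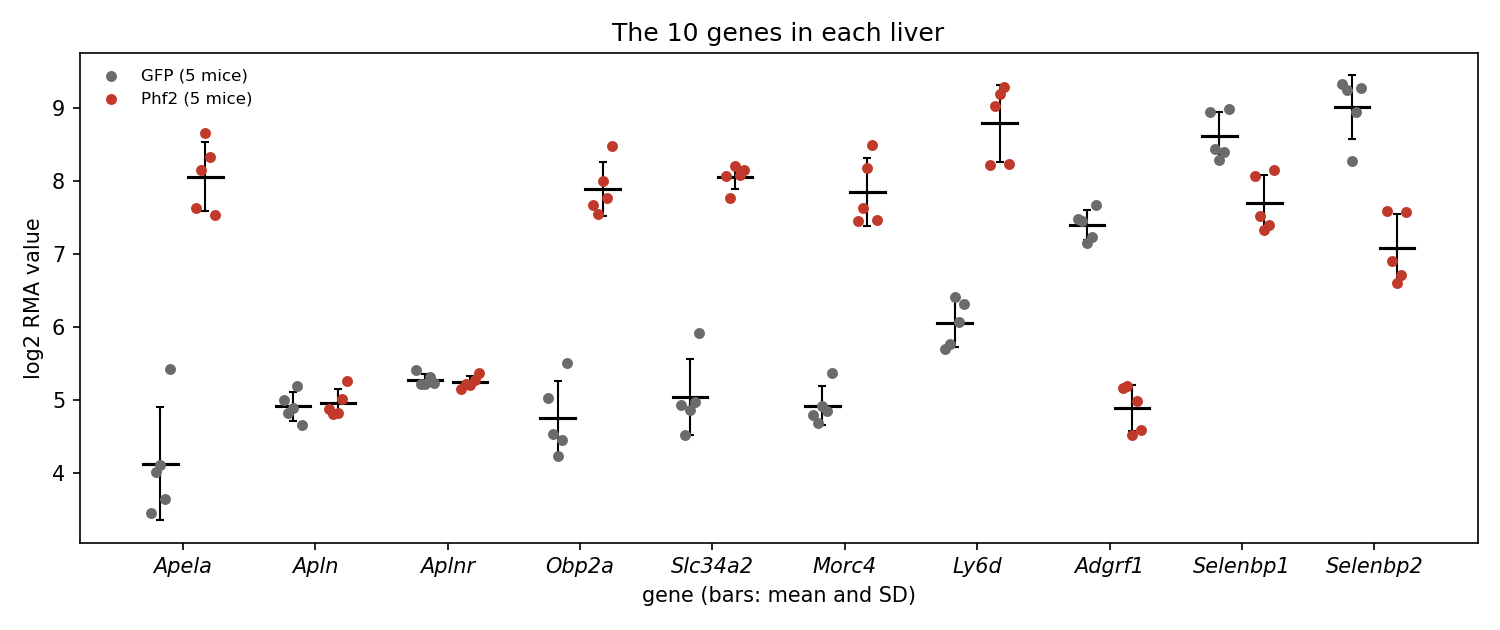
Each liver is a point (grey for 5 GFP mice, red for 5 Phf2 mice) for the 10 genes on the horizontal axis, with log2 RMA values on the vertical axis. Horizontal lines mark group means and bars the SD. Apela lies between 3.44 and 5.42 in GFP mice and between 7.53 and 8.65 in Phf2 mice. Its receptor Aplnr stays between 5.15 and 5.40 in all 10 livers, near the array medians.

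Apela ranked 2 among 19938 genes by the size of its rise. It read 3.44, 4.01, 4.10, 3.64 and 5.42 in GFP mice 1 to 5 and 7.62, 8.14, 8.65, 8.32 and 7.53 in Phf2 mice 1 to 5. All Phf2 livers lay above all GFP livers, with a gap of 2.11 between the groups, and GFP mouse 5 was the highest of the controls. The group means were 4.12 ± 0.77 (SD, n = 5) and 8.05 ± 0.47 (SD, n = 5), a log2 difference of 3.93 (standard error 0.41) or 15.3-fold. Without GFP mouse 5 the difference was 4.26. Since 4 of the 5 GFP values lie below the median of their array, the control level of this peptide is close to the low end of the scale. The 250 bases before the start of Apela in RefSeq (assembly GRCm38.p6, chr8:65037337-65037586, minus strand) are shown because this gene had the largest change of the 10. Capitals mark the letters CCAAT read on the opposite strand (as ATTGG), the one match found there to the motifs searched.
Apela: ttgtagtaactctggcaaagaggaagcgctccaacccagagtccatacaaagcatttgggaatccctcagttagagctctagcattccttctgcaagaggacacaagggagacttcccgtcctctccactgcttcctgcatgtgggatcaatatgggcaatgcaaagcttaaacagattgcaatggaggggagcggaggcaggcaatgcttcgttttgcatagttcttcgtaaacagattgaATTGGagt

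The other ligand and the receptor showed no such separation. Apln read 5.00, 4.82, 4.88, 5.18 and 4.66 in GFP mice and 4.88, 4.80, 4.82, 5.01 and 5.26 in Phf2 mice. The groups overlapped throughout, and the log2 difference was 0.04 (standard error 0.12), a value that was -0.03 without Phf2 mouse 5 and close to 0 (-0.00285) after centring on the median of the genes tested. Aplnr read 5.40, 5.22, 5.22, 5.31 and 5.23 in GFP mice and 5.15, 5.22, 5.20, 5.27 and 5.37 in Phf2 mice, a log2 difference of -0.04 (standard error 0.05). The receptor varied less among livers than any of the other 9 genes, with an SD of 0.08 in each group. Apln and Aplnr both read near or below the array medians (5.06 to 5.18), where a fold change is compressed. Endothelial markers, whose cells carry the receptor elsewhere in the body, averaged 7.33 to 7.46 in GFP mice and 7.26 to 7.47 in Phf2 mice.

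Of 15 genes around the apelin receptor (processing and breakdown of its ligands, G proteins, arrestins, kinases and the related angiotensin genes), 1 was higher and 1 was lower, with a median log2 difference of 0.06. Furin, a protease that cleaves many prohormones, rose by 0.56 (standard error 0.08, adjusted p = 0.000655 from limma). Agtr1a, the main angiotensin II receptor of liver and a relative of Aplnr, fell by 0.52 (standard error 0.09, adjusted p = 0.00285). The other 13 did not pass the test. The list was assembled by role with earlier results of these data known, as were all lists below.

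Obp2a was the second largest rise of the 10. Its values were 5.02, 4.52, 4.24, 4.45 and 5.50 in GFP mice and 7.67, 7.55, 8.00, 7.76 and 8.48 in Phf2 mice. The groups were separated by 2.05, and mouse 5 was the highest of its group in both. GFP livers averaged 4.75 ± 0.51 (SD, n = 5) and Phf2 livers 7.89 ± 0.37 (SD, n = 5), which is a log2 difference of 3.14 (standard error 0.28) or 8.85-fold. The 250 bases before its start (GRCm38.p6, chr2:25699824-25700073, plus strand) are shown because they hold the letters TATAAA (capitals) on the strand of the gene. The match lies 61 to 56 bases before the start, and whether it works as a TATA box was not tested.
Obp2a: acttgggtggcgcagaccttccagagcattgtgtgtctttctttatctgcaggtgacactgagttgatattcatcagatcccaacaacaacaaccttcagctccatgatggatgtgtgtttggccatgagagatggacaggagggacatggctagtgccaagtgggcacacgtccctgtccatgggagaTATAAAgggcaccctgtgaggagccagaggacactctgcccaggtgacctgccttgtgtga

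Other lipocalins moved in both directions. The paralogue Obp2b, the second tested gene after Obp2a, was low in GFP mice (3.57), with a log2 difference of -0.06 (standard error 0.08, adjusted p = 0.756 from limma). Of 20 lipocalins outside the major urinary proteins, 3 were higher and 3 were lower (30% past the threshold, against 9.67% of all genes), with a median of -0.05. The higher genes were Lcn2, an iron-binding lipocalin of the acute phase, with a log2 difference of 2.04 (standard error 0.36, adjusted p = 0.0037), and the acute phase genes Orm3 and Orm2, with 1.59 (standard error 0.26, adjusted p = 0.00222) and 1.39 (standard error 0.23, adjusted p = 0.00217). Apom, the lipocalin of high-density lipoprotein, fell by 0.87 (standard error 0.13, adjusted p = 0.00149). Orm1 (-0.24, standard error 0.06, adjusted p = 0.0309) and C8g, a complement subunit (-0.24, standard error 0.07, adjusted p = 0.0453), were also lower, and their adjusted p rose to as much as 0.0864 and 0.117 under other settings. The Orm genes are close copies of each other, so that how signal divides among them is uncertain.

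Slc34a2 followed at almost the same size of change. It read 4.93, 4.51, 4.86, 4.97 and 5.91 in GFP mice and 8.07, 7.76, 8.20, 8.08 and 8.15 in Phf2 mice. The Phf2 livers agreed closely (8.05 ± 0.17, SD, n = 5), whereas the GFP livers were spread more widely (5.04 ± 0.52, SD, n = 5) because of mouse 5. The log2 difference was 3.01 (standard error 0.25), or 8.08-fold, and 3.23 without GFP mouse 5. As with Apela, 4 of the 5 GFP values lie below their array medians. The sister transporters of the kidney did not pass the test, and both were near the array medians in GFP mice (5.36 for Slc34a1 and 5.39 for Slc34a3). Slc34a1 had a log2 difference of -0.02 (standard error 0.08, adjusted p = 0.929 from limma) and Slc34a3 one of -0.18 (standard error 0.08, adjusted p = 0.19). In a list of 17 genes for phosphate transport and its hormonal control, 0 passed the adjusted threshold by limma and 0 by the methods' t-test, and 6 had an unadjusted p under 0.05. Their differences ran from -0.29 to 0.35. The smallest p values belonged to Pdzk1, a scaffold of membrane transporters (-0.21, standard error 0.07, adjusted p = 0.069), and Slc20a1, the widely expressed phosphate transporter and retrovirus receptor (0.35, standard error 0.12, adjusted p = 0.09). Both passed under some other settings, at adjusted p values down to 0.0353 for Pdzk1 and 0.0161 for Slc20a1, the latter without GFP mouse 5.

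Morc4 rose as strongly. It read 4.79, 4.68, 4.91, 4.85 and 5.36 in GFP mice and 7.45, 7.62, 8.17, 8.50 and 7.47 in Phf2 mice. The groups were 2.09 apart, and Phf2 mice 3 and 4 stood above the other Phf2 mice. GFP livers averaged 4.92 ± 0.26 (SD, n = 5) and Phf2 livers 7.84 ± 0.47 (SD, n = 5), which is a log2 difference of 2.92 (standard error 0.24) or 7.58-fold. Its relative Morc3, a nuclear ATPase that binds H3K4me3, rose by 0.86 (standard error 0.10, adjusted p = 0.000149 from limma), and this call held under each alternative run. The ATPase Morc2a, which works with the silencing complex HUSH, had a log2 difference of -0.20 (standard error 0.11, adjusted p = 0.328). Of 8 MORC and HUSH genes, 2 were higher, Morc3 and Atf7ip, a partner of the H3K9 methyltransferase Setdb1 (0.30, standard error 0.07, adjusted p = 0.0167), and 6 did not pass the test, with a median of -0.00334. The Atf7ip call was lost with the replicate number as a block (adjusted p = 0.0672) and without Phf2 mouse 4 (0.0501).

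Ly6d read 5.70, 5.76, 6.41, 6.06 and 6.31 in GFP mice and 8.21, 9.02, 9.19, 9.29 and 8.22 in Phf2 mice. Phf2 mice 2, 3 and 4 lay above Phf2 mice 1 and 5, and all lay above the controls by at least 1.80. GFP livers averaged 6.05 ± 0.32 (SD, n = 5) and Phf2 livers 8.79 ± 0.53 (SD, n = 5), which is a log2 difference of 2.74 (standard error 0.28) or 6.67-fold. Markers of B cells, the lineage in which Ly6d is best known, averaged 4.50 to 4.76 in GFP mice and 4.60 to 5.08 in Phf2 mice, and 0 of 5 passed the test by limma (0 at an unadjusted p under 0.05 and 0 by the methods' t-test). These averages lie below or among the array medians, where a fold change is compressed. Of 30 relatives of the Ly6 and uPAR family, 1 was higher and 1 was lower (6.67%, against 9.67% of all genes), with a median of -0.01. Many of the 30 lay below the array medians in GFP mice, such as Psca (3.77) and Tex101 (3.93). Lynx1, a modulator of nicotinic acetylcholine receptors whose gene is next to Ly6d in gene order, rose by 0.72 (standard error 0.14, adjusted p = 0.00662). Ly6g2 fell by 0.48 (standard error 0.12, adjusted p = 0.0244), with an adjusted p of up to 0.0834 under other settings. Ly6 genes resemble each other, and whether their features share signal is not stated.

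Adgrf1 went the other way and ranked 3 among all genes by the size of its fall. Its values were 7.47, 7.45, 7.15, 7.23 and 7.66 in GFP mice and 5.16, 5.18, 4.52, 4.98 and 4.59 in Phf2 mice. The groups were 1.97 apart, with little spread inside either. The mean fell by 2.51 (log2, standard error 0.17), from 7.39 ± 0.20 (SD, n = 5) to 4.89 ± 0.32 (SD, n = 5), which is a 5.69-fold lower signal. In 3 of the 5 Phf2 livers, and on average, it lay below the range of array medians. The other tested receptors of its subfamily did not pass the test, but Adgrf2 (3.41 in GFP mice) and Adgrf4 (3.00) were far below the array medians, where a fall would be hard to see. Adgrf2 had a log2 difference of -0.08 (standard error 0.08, adjusted p = 0.646 from limma), Adgrf4 one of -0.01 (standard error 0.07, adjusted p = 0.962) and Adgrf5, a receptor of lung and endothelium, one of -0.10 (standard error 0.09, adjusted p = 0.591). Among all 27 other adhesion receptors, 0 passed by limma and 0 by the methods' t-test, with 5 at an unadjusted p under 0.05 and differences from -0.35 to 0.30. Many of the 27 likewise lay below the array medians in GFP mice, such as Adgrb3 (3.40) and Adgrl3 (3.76). The nearest to the threshold were Adgrl2, a latrophilin (-0.35, standard error 0.11, adjusted p = 0.0621), which passed under 5 of the other settings, and Adgre5, a leukocyte receptor (0.30, standard error 0.12, adjusted p = 0.162).

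**Figure D2:**
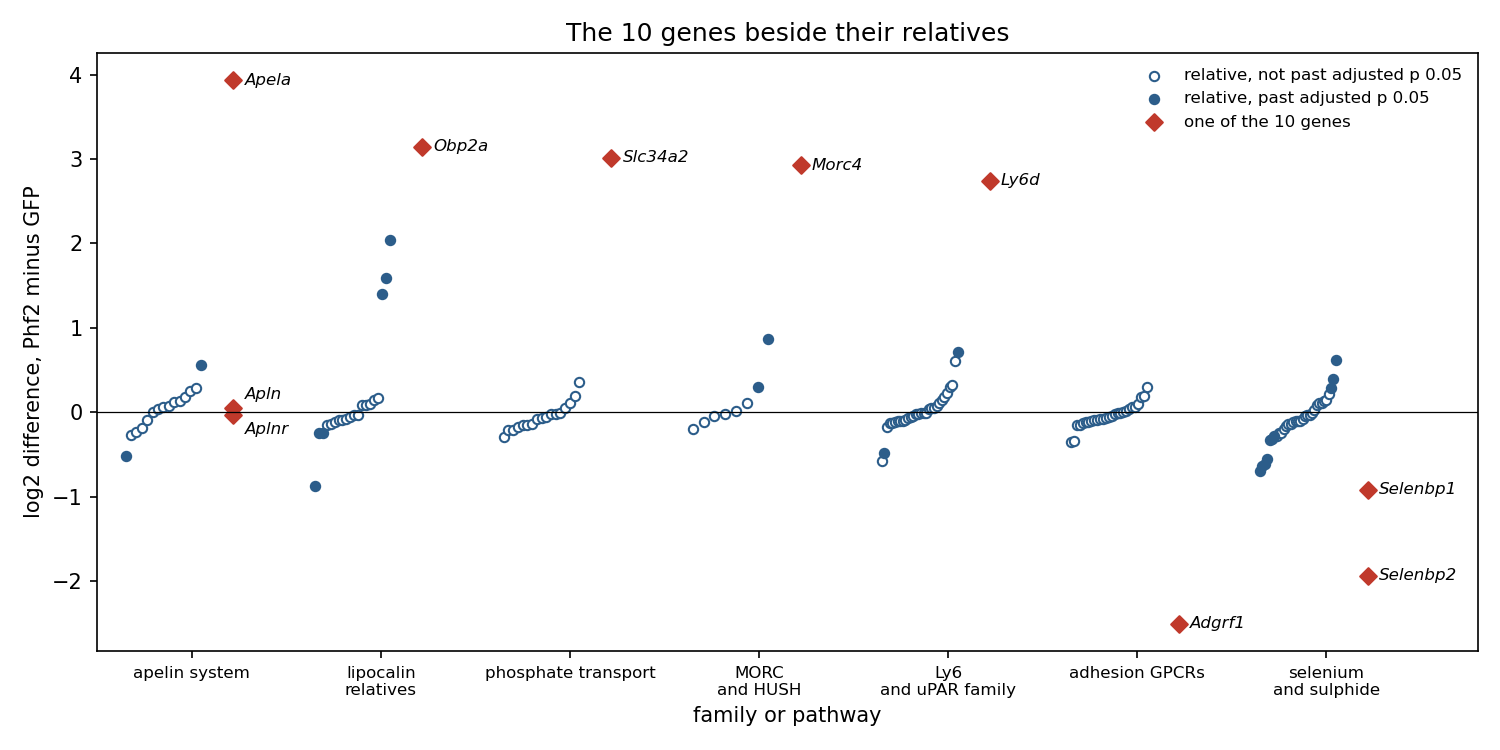
Log2 difference (Phf2 minus GFP, vertical axis) of the 10 genes (red diamonds) and of their relatives (circles, filled where they passed an adjusted p of 0.05), by family or pathway (horizontal axis). Adgrf1 lies at -2.51 while 27 other adhesion receptors run from -0.35 to 0.30, and Slc34a2 at 3.01 while 17 other phosphate genes run from -0.29 to 0.35. Many of the 27 lie below the array medians in GFP mice, where a fall would be hard to see.

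Selenbp1 and Selenbp2 fell together, Selenbp2 more steeply. Selenbp1 read 8.94, 8.44, 8.28, 8.40 and 8.98 in GFP mice and 8.07, 7.52, 7.33, 7.40 and 8.15 in Phf2 mice. The groups were only 0.13 apart, as GFP mouse 3 (8.28) came close to Phf2 mouse 5 (8.15). The mean fell by 0.92 (standard error 0.23), from 8.61 ± 0.33 (SD, n = 5) to 7.69 ± 0.39 (SD, n = 5), a 1.89-fold lower signal. Selenbp2 read 9.32, 9.25, 8.27, 8.94 and 9.26 in GFP mice and 7.59, 6.90, 6.60, 6.70 and 7.58 in Phf2 mice. Its log2 mean was lower by 1.93 (difference -1.93, standard error 0.29), from 9.01 ± 0.44 (SD, n = 5) to 7.07 ± 0.48 (SD, n = 5), a 3.82-fold lower signal, and the difference was -2.12 without GFP mouse 3. In both genes Phf2 mice 1 and 5 were the highest of the Phf2 livers and GFP mouse 3 the lowest of the controls. The genes lie on chromosome 3 with 3 tested genes between them (Psmb4, Pogz and Cgn), which had log2 differences of 0.08, 0.03 and 0.08 and did not pass the test.

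The starts of this pair are shown because the genes fell together and their upstream sequences are alike. In RefSeq (GRCm38.p6) the 250 bases before the start are chr3:94932833-94933082 for Selenbp1 and chr3:94693323-94693572 for Selenbp2, both on the plus strand. In a global alignment 223 positions were identical and 15 differed (93.7% identity of aligned bases), with 24 gap positions, and the other 27 pairs among the 8 promoters reached at most 68.1% (Apln and Slc34a2). Capitals mark the letters TATAAA on the opposite strand (as TTTATA), 113 to 108 bases before the start in Selenbp1 and 103 to 98 in Selenbp2. They also mark the letters CCAAT, which in Selenbp1 overlap a CCAAT on the opposite strand.
Selenbp1: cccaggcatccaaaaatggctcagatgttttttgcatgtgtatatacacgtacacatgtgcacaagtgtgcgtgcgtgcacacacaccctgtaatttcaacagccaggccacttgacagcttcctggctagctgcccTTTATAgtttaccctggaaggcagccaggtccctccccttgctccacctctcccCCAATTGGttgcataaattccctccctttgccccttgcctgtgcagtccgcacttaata
Selenbp2: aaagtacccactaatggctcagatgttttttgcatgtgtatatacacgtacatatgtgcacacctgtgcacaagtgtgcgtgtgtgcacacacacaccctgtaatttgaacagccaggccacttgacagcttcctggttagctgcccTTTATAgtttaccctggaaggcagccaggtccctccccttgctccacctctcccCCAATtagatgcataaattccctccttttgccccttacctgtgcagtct
Because the paralogues are similar, signal of one may reach the feature of the other, and the values of the pair are uncertain to that degree.

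Methanethiol oxidation yields sulphide. Of 5 genes that handle sulphide, set apart from their list by role after their values were seen, 4 were lower in Phf2 mice (4.24% of all genes were): Suox, the sulphite oxidase, by 0.64 (standard error 0.13, adjusted p = 0.00809 from limma), Tst, the sulphurtransferase rhodanese, by 0.61 (standard error 0.14, adjusted p = 0.0151), Sqor, the sulphide quinone oxidoreductase, by 0.33 (standard error 0.07, adjusted p = 0.00671), and Ethe1, the persulphide dioxygenase, by 0.29 (standard error 0.07, adjusted p = 0.0271). For these 4 every Phf2 liver lay below every GFP liver (4.36% of all genes). Because of how the 5 were set apart, nothing is read from these counts. Mpst, which makes sulphide from mercaptopyruvate, had a log2 difference of -0.28 (standard error 0.14, adjusted p = 0.248). Ethe1 passed or failed with the arrays used, up to an adjusted p of 0.0753 without Phf2 mouse 2, and Tst failed only in the methods' t-test (0.0662). Of the other 28 genes of that list, those of selenium handling and selenoproteins, 3 were higher and 2 were lower, and the list as a whole had a median of -0.10 and 27.3% of genes past the threshold, against 9.67% of all genes. The higher genes were the glutathione peroxidases Gpx3 (0.61, standard error 0.16, adjusted p = 0.0297) and Gpx4 (0.40, standard error 0.09, adjusted p = 0.0114) and the thioredoxin reductase Txnrd1 (0.29, standard error 0.07, adjusted p = 0.0273). The lower genes were Selenoo, a mitochondrial selenoprotein (-0.70, standard error 0.12, adjusted p = 0.00333), and Msrb1, a methionine sulphoxide reductase (-0.55, standard error 0.09, adjusted p = 0.00168). Gpx3, Gpx4 and Txnrd1 failed under some other settings, at adjusted p values of up to 0.106, 0.0502 and 0.072. Most genes of the list read above the array medians in GFP mice. Of 11218 genes above the array median in at least 5 arrays, 1103 were higher and 932 lower, a larger share than 9.67%.

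**Figure D3:**
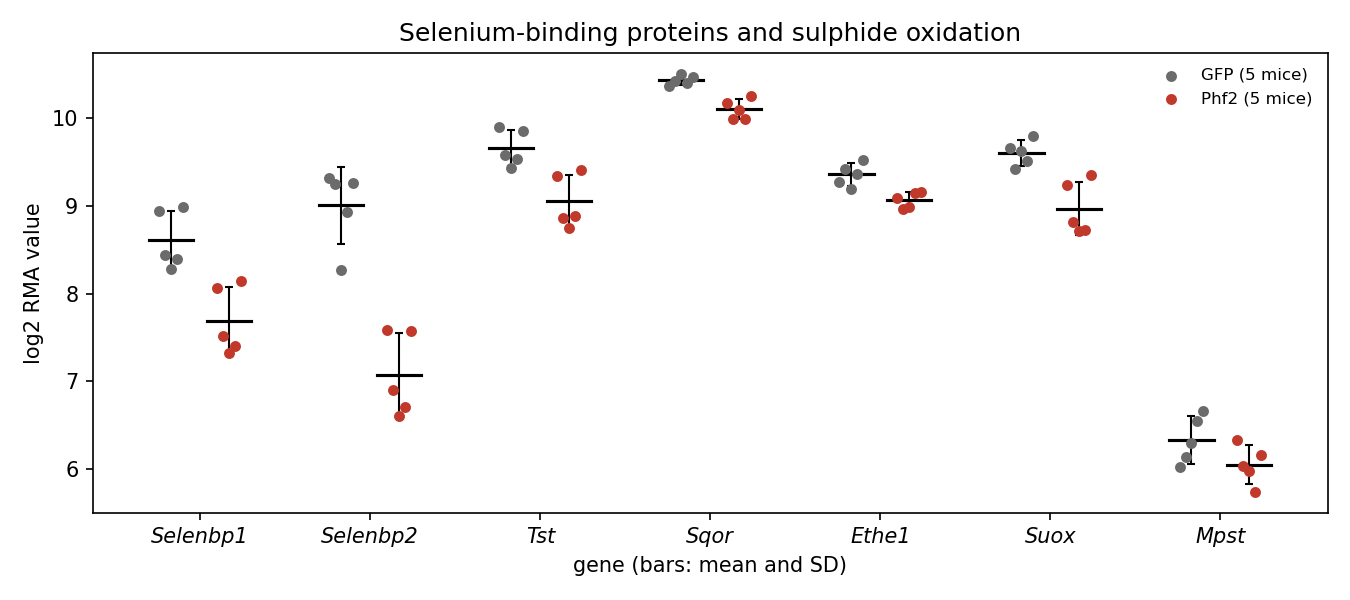
Selenbp1, Selenbp2 and 5 genes of sulphide oxidation (horizontal axis) by log2 RMA value (vertical axis), with a grey point for each of 5 GFP mice and a red point for each of 5 Phf2 mice. Horizontal lines mark group means and bars the SD. Phf2 mice 1 and 5 are the highest red points for Selenbp1 and Selenbp2, as they are for Tst and Suox.

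The changed genes did not all vary alike from liver to liver. After the mean of each group was removed, Pearson's r over the 10 arrays was 0.81 between Morc4 and Ly6d, 0.74 between Apela and Morc4 and 0.69 between Apela and Ly6d, and 0.74 between Obp2a and Slc34a2. Selenbp1 and Selenbp2 followed each other at 0.87, and Ly6d ran against them at -0.72 and -0.86. These pooled values hide differences between the groups. Within the 5 Phf2 livers, r with Selenbp1 and Selenbp2 was -0.99 and -0.99 (Ly6d), -0.97 and -0.98 (Apela), -0.82 and -0.84 (Morc4). Within the 5 GFP livers it was -0.22 and -0.68 (Ly6d), 0.38 and 0.11 (Apela), 0.52 and 0.06 (Morc4). The r values describe 45 pairs over the same 10 arrays, or the 5 of a group, and carry no test. For Apela, Morc4, Ly6d, Selenbp1 and Selenbp2 the least changed Phf2 liver was mouse 1 or mouse 5. For Obp2a, Slc34a2 and Adgrf1 it was mouse 2, and Phf2 mouse 3 was the most changed for 5 of the 8 genes. Among controls, GFP mouse 5 was the highest for 6 of the 8, which are the risers Apela, Obp2a, Slc34a2 and Morc4 and also Adgrf1 and Selenbp1, both of which fell with Phf2.

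Cell type markers moved along with part of this pattern. The mean of the 6 T and NK cell markers was 4.93 to 5.41 in GFP mice and 5.67 to 6.60 in Phf2 mice, lowest in Phf2 mice 5 (5.67) and 1 (5.79) and highest in mice 3 (6.25) and 4 (6.60). Its deviations had an r of 0.69 with those of Ly6d, 0.64 with Morc4, -0.83 with Selenbp1 and -0.72 with Selenbp2, but 0.32 with Apela and -0.47 with Obp2a. Hepatocyte markers had an r of -0.78 with Ly6d, -0.74 with Morc4, 0.76 with Selenbp1 and 0.72 with Selenbp2. Kupffer cell markers had an r of 0.68 with Ly6d, 0.43 with Morc4, -0.52 with Selenbp1 and -0.79 with Selenbp2, and stellate cell markers one of 0.56, 0.38, -0.65 and -0.47. All these r values describe livers within their groups. Between the groups the Kupffer mean went the other way from Ly6d and Morc4, lower by 0.41 in Phf2 mice, as Selenbp1 and Selenbp2 were lower. GFP mouse 3 was high in the Kupffer mean (8.50, against 7.73 to 8.06 in the other controls). For Apela the r was -0.465 with hepatocyte, 0.47 with Kupffer and 0.39 with stellate cell markers, and for Obp2a it was 0.24, -0.32 and -0.12. The part of these cells in the differences was not tested. The T and NK markers that passed were Cd3g (1.502, standard error 0.27, adjusted p = 0.00393 from limma), Nkg7 (1.08, standard error 0.21, adjusted p = 0.00677), Cd8a (0.76, standard error 0.15, adjusted p = 0.00798), Cd3e (0.64, standard error 0.10, adjusted p = 0.00161) and Klrd1 (0.62, standard error 0.17, adjusted p = 0.0358). The hepatocyte markers were Tat (-0.83, standard error 0.23, adjusted p = 0.0407), Cps1 (-0.57, standard error 0.15, adjusted p = 0.032) and Apoa1 (-0.21, standard error 0.05, adjusted p = 0.0263). Klrd1, Tat, Cps1 and Apoa1 failed under several other settings, at adjusted p values of up to 0.118, 0.134, 0.109 and 0.0912.

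**Figure D4:**
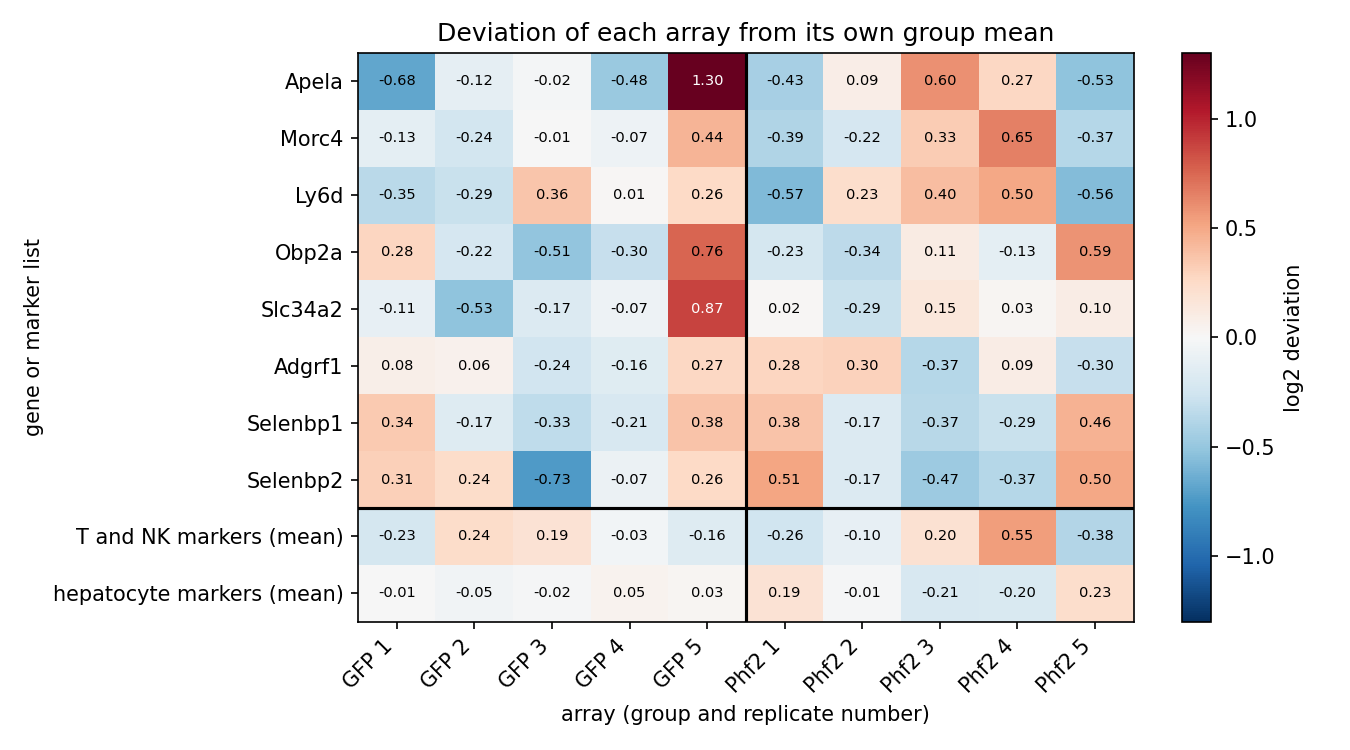
Deviation of each array from the mean of its own group (log2, colour and number) for the 8 genes that differed and for the mean of the T and NK cell and hepatocyte markers (rows), by array (columns). In Phf2 mice 1 and 5 Apela, Morc4 and Ly6d lie below their group mean and Selenbp1 and Selenbp2 above it, and GFP mouse 5 has the largest deviation shown, 1.30 for Apela.

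Gene order and upstream sequence played no part in the choice. Of 57 tested genes among the 3 nearest on either side of each member, 4 were higher and 1 was lower, or 8.77% against 9.67% of all genes. The neighbours that passed were Bmyc next to Obp2a (0.85, standard error 0.10, adjusted p = 0.000178 from limma), Pla2g7, a phospholipase of platelet-activating factor, near Adgrf1 (0.73, standard error 0.08, adjusted p = 0.000122), Lynx1 next to Ly6d, Snx27, a sorting nexin, near Selenbp2 (0.25, standard error 0.07, adjusted p = 0.0392), and Klhl2 near Apela, which fell by 0.67 (standard error 0.09, adjusted p = 0.000664). Snx27 failed under other settings, at an adjusted p of up to 0.104. Promoters of 8 of the 10 genes were found in the RefSeq table, and Aplnr and Ly6d are not among them. Their GC content ran from 48% in Apela to 69.6% in Slc34a2, against a median of 52.4% over all promoters, and CpG pairs from 2 in Obp2a, Adgrf1 and Selenbp2 to 28 in Slc34a2. On either strand, none of the 8 held the E-box CACGTG (6.02% of 32851 promoters), the core of the antioxidant response element TGACNNNGC (10.2%), the direct repeat of AGGTCA with a spacer of any base (0.03%) or the STAT5 site TTCNNNGAA (7.02%). TATAAA was found in 3 of them (Obp2a, Selenbp1 and Selenbp2; 12.4% of all), CCAAT in 3 (Apela, Selenbp1 and Selenbp2; 33.9%) and GGGCGG in 3 (Apln, Morc4 and Adgrf1; 32.7%). A match or its absence here describes the letters of this window only.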

How the data were processed

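Liver RNA of 10 mice (5 GFP, 5 Phf2) was measured on 1 array each. The authors normalized the arrays with RMA and deposited log2 values for 35556 features, with Partek also named in the submitters' processing notes and versions not stated. A human array is named in the methods, whereas the platform annotation is that of a mouse Gene ST array. No genome build is stated, so genes carry no coordinates and sequences carry those of RefSeq on GRCm38.p6. Features with 1 symbol (21789) gave 19938 genes, using the feature of highest mean where a gene had several. Unused were 1621 features with several symbols and 12146 with none. Groups followed the sample titles.

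The comparison of Phf2 with GFP used lmFit and eBayes of limma 3.58.1 (R 4.3.3), two-sided and without covariates, and p-values were adjusted over all genes by Benjamini-Hochberg, with calls at 0.05. Standard errors of the 10 members are those of a difference of means, and others are from limma. Members and lists were chosen with earlier results of these data known. Named genes are the members, up to 2 called genes per direction of each list (all where 5 or fewer were called, and up to 2 with the smallest p where none was), called neighbours, and the 2 genes most like each member. Obp2b, Slc34a1, Slc34a3, Adgrf2, Adgrf4, Adgrf5, Morc2a, Sqor, Ethe1, Msrb1 and Mpst were added after their values were seen. On simulated arrays of 19938 genes limma recovered 38 of 50 genes changed 1.5-fold, 50 of 50 changed 2-fold, 49 of 50 changed 4-fold and 50 of 50 changed 8-fold, with 10 false calls. The simulated noise was normal and independent between genes, whereas real genes shared deviations. These counts check the procedure and give no error rate for the real arrays. The number of arrays limits the precision, no array pair held identical values, and p-values measure the spread between these mice. Alternatives were the methods' t-test (with p-values adjusted as above), a robust intensity trend, array weights, quantile normalization, median centring, averaging features per gene, a block for the replicate number, a filter on dim features, all features, the study's call rule of 1.5-fold at an unadjusted p of 0.05, and leaving out each array, and centring on the median of the genes tested was added after the data were seen.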

Additional observations from a re-analysis of the deposited data

Results flagged for a closer look

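None of the 10 genes had a liver that stood apart from its group by Dixon's test (critical ratio 0.71 for 5 samples). Of 176 groups examined over members and named genes, 6 held such a liver, where chance flags about 1 in 20. GFP mouse 3 was high for Timd4, a Kupffer cell marker, at 8.45 against 7.53 for the next. Phf2 mouse 4 was high for Ms4a1, a B cell marker, at 5.18 (5.185) against 4.25. GFP mouse 1 was high for Cpa1, a pancreatic enzyme, at 12.35 against 8.01. GFP mouse 5 was high for Tle1, a corepressor, at 6.49 against 6.25. GFP mouse 2 was high for Adgrf2, a relative of Adgrf1, at 3.60 against 3.38, and Phf2 mouse 2 was low for Rrp12, a ribosome assembly factor, at 5.07 against 5.17.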

How the results depend on the processing

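The differences of the 10 genes moved by less than 1 SD of their livers in all 160 values recomputed, and each of the 8 that differed kept its direction. For most of these values the first outcome was fixed in advance. Leaving out 1 of 5 livers cannot move a difference by 1 SD, and the replicate block and feature averaging return the main value. The count of 160 is therefore no measure of robustness. Leaving out 1 array at a time gave 3.76 to 4.26 for Apela, -0.03 to 0.11 for Apln, -0.07 to -0.00434 for Aplnr, 3.00 to 3.33 for Obp2a, 2.88 to 3.23 for Slc34a2, 2.76 to 3.03 for Morc4, 2.61 to 2.88 for Ly6d, -2.58 to -2.42 for Adgrf1, -1.03 to -0.82 for Selenbp1 and -2.12 to -1.82 for Selenbp2. Genes past the adjusted threshold numbered 727 (without Phf2 mouse 4) to 1220 (without Phf2 mouse 5) higher and 571 (without Phf2 mouse 2) to 912 lower. The methods' t-test called 694 higher, the study's call rule 475 higher and 231 lower, and centring on the median of the genes tested 1280 lower. Of 150 genes in the family and pathway lists, 10 were higher and 11 lower. These were 7 to 11 higher and 7 (without Phf2 mouse 2 or 3) to 13 lower when 1 array was left out, and 6 and 4 by the study's call rule. Neighbours numbered 4 higher and 1 lower (3 to 4 and 1 to 2 when 1 array was left out), with 2 lower under array weights, quantile normalization, median centring and the filter on dim features and 3 lower under centring on the median of the genes tested. The causes were not tested. With the replicate number as a block 855 genes were higher and 659 lower, 8 list genes higher and 8 lower, and neighbours as before. Same-numbered livers had correlations of deviations from -0.29 to -0.0421, which show no sign of pairing by number but cannot exclude it. Of 78 other named genes 43 passed the threshold, and 18 of these failed under at least 1 alternative. Of the 35 that did not pass, 9 passed under at least 1. Depth does not apply to arrays, and low signal limits Apela, Obp2a, Slc34a2 and Morc4 in GFP mice, Adgrf1 in Phf2 mice, and Apln and Aplnr in both.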

Other observations

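The genes whose deviations from the group means were most like those of each member are given as a description, since the best of 19938 genes over 10 arrays reach a high r in any case. Ly6d was followed most closely by Top2a, a topoisomerase of dividing cells (r = 0.97), which rose by 1.31 (standard error 0.31, adjusted p = 0.0186 from limma), and by Tubb2a, a tubulin (r = 0.95), which rose by 0.60 (standard error 0.11, adjusted p = 0.00533). The adjusted p of Top2a was up to 0.0894 under other settings. Selenbp1 was followed by Tst (r = 0.98), the rhodanese named above, and by Dhrs1, a short-chain dehydrogenase (r = 0.98), which fell by 0.39 (standard error 0.08, adjusted p = 0.00691). Selenbp2 was followed by Abcb10, a mitochondrial transporter (r = 0.96), with a difference of -0.25 (standard error 0.09, adjusted p = 0.129), and by Car5a, the mitochondrial carbonic anhydrase (r = 0.96), which fell by 1.01 (standard error 0.17, adjusted p = 0.00298). Morc4 was followed by Bcl3, an NF-kB cofactor (r = 0.99), with a difference of 0.51 (standard error 0.16, adjusted p = 0.0629).

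For the other members the most similar genes were Nop14 and Zfp397 for Apela (r = 0.97 each), Chia1 and Gpr85 for Apln (0.97 and 0.96), Ccdc160 and Olfr1299 for Aplnr (0.96 and 0.94), Zdhhc6 and Tpcn1 for Obp2a (0.96 and 0.95), Rrp12 and Tle1 for Slc34a2 (0.96 each), Ap1s2 as a second gene for Morc4 (0.96) and Btrc and Defb42 for Adgrf1 (0.90 each). Of these, Tpcn1 and Tle1 passed the threshold, both lower, with log2 differences of -0.42 and -0.25, against the direction of Obp2a and Slc34a2, and both failed under several other settings (adjusted p of up to 0.0777 and 0.0893).

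Of the remaining marker lists, Kupffer cell markers averaged 7.73 to 8.50 in GFP mice and 7.45 to 7.73 in Phf2 mice, with Timd4 lower by 1.59 (standard error 0.19, adjusted p = 0.000252), Clec4f by 0.54 (standard error 0.11, adjusted p = 0.00617) and Marco by 0.37 (standard error 0.10, adjusted p = 0.0405). Marco failed under 11 of 19 other settings, at an adjusted p of up to 0.104, so that the count of 3 of 6 rests partly on it. The others did not pass, with Vsig4 at -0.39 (adjusted p = 0.0655) and, in the other direction, Cd5l at 0.24 (adjusted p = 0.43) and Adgre1 at 0.18 (adjusted p = 0.627). Stellate cell markers averaged 6.81 to 7.04 and 6.92 to 7.49, with 0 of 6 past the adjusted threshold by limma, 4 at an unadjusted p under 0.05 and 0 by the methods' t-test. Of 6 red cell markers 2 were tested. Alas2, an enzyme of heme synthesis, was lower by 0.89 (standard error 0.12, adjusted p = 0.000463), and Slc4a1, the anion exchanger of red cells, had a difference of -0.06 (adjusted p = 0.769). Pancreatic markers averaged 6.32 to 12.36 in GFP mice and 5.81 to 10.71 in Phf2 mice, and the deviations of their mean had an r between -0.19 and 0.27 with those of the 8 changed members.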
